A study of Mus musculus with 6 samples.

Results

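miR-34a-5p and miR-34c-5p (mmu-miR-34a-5p and mmu-miR-34c-5p, where mmu marks the mouse) are members of the miR-34 family. They were taken by name from the 199 mature miRNAs counted in organoids of the mouse small intestine, and make up 2 of them. Organoids are epithelial cultures grown in a gel from isolated crypts, the pits of the gut lining that hold its stem cells. One group was exposed for 4 days to 0.5 µg/ml BMP4, a secreted protein of the bone morphogenetic protein family, and the control group to PBS. There were 3 libraries per group, all of organoids labelled intestinal epithelium. The labels give no genotype, strain or age of the mice and do not state that replicates are separate cultures, so p-values measure only the spread between libraries, which may be technical. The comparison addresses how the level of each miRNA differs in organoids exposed to BMP4.

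The miR-34 family is best known as a direct transcriptional target of the tumour suppressor p53. In mouse and human cells its members lower the output of mRNAs for cell cycle and survival proteins such as cyclin-dependent kinases, cyclin E2, MET and BCL2. A miRNA recognises its targets mainly through its seed, the stretch of bases 2 to 8 counted from the 5′ end, so miRNAs with one seed have largely overlapping sets of targets. miR-34a is made from its own locus and is found in many tissues, whereas miR-34b and miR-34c come from a shared transcript that is most abundant in lung and testis. The miR-449 cluster, which carries the same seed, is known from multiciliated cells. No p53 protein or target mRNA was measured in these libraries.

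The seed that defines the family is shown in capitals in the sequences below, with the rest of each mature miRNA in lower case, so that the shared and the variable parts can be compared. They are RefSeq sequences on GRCm38.p6, written 5′ to 3′.
miR-34a-5p: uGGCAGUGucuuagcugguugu
miR-34b-5p: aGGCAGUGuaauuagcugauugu
miR-449a-5p: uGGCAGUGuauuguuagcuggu
miR-449c-5p: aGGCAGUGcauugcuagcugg
These 4 were the names with this seed among 1679 RefSeq mature miRNAs. miR-34c-5p, the other member analysed, belongs to the same family. It had no entry among the RefSeq sequences used, so it is missing from these names and its bases were not compared. miR-449b, of the miR-449 cluster, was not among these names either. Outside the seed the family differs, with 4 single-base edits (substitutions, insertions or deletions) between miR-34a-5p and miR-34b-5p, 6 to miR-449a-5p and 7 to miR-449c-5p. miR-34b-5p, the miR-449 arms and the opposite (3p) arms of the miR-34 hairpins were not analysed here. Of the counted entries 177 matched a RefSeq mature sequence by name, and the nearest of these, which do not include miR-34c-5p, lay 9 edits from miR-34a-5p, among them miR-15a-5p and miR-200a-3p.

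The 2 members come from separate places in the genome. Mir34a, the hairpin of miR-34a-5p, lies on the + strand of chromosome 4, with the hairpin at chr4:150068454-150068555 and its mature 5p arm at chr4:150068473-150068494 (GRCm38.p6). It overlaps an exon of Gm37795, a gene of unassigned type on the same strand in the GENCODE annotation. Mir34c lies on the - strand of chromosome 9 at chr9:51103034-51103110 and Mir34b at chr9:51103562-51103645, 451 bases apart, and both lie within an intron of Btg4, a gene of the opposite strand. The Mir34a hairpin is shown because its 5p arm, in capitals, is the part of that locus analysed here.
Mir34a hairpin: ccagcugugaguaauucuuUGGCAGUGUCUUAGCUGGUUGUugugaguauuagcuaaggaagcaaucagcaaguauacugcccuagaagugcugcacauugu
The arm occupies positions 20 to 41 of the 102 bases.

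Depth ranged from 259811 counts in PBS replicate 1 to 3486409 in BMP4 replicate 3, and the composition differed between groups. The 8 markers fixed for intestinal epithelium, mostly miR-192-5p, miR-194-5p and miR-215-5p, took 496699 to 517032 RPM (reads-per-million of all counts) in PBS and 808168 to 830824 RPM in BMP4. Levels are therefore given in CPM on the TMM scale, that is, as counts-per-million after libraries were scaled by edgeR's trimmed mean of M values (TMM), a method that takes most miRNAs as unchanged. The TMM factors were 1.90 ± 0.105 in PBS and 0.542 ± 0.147 in BMP4 (SD, n = 3), with the lowest, 0.375, in BMP4 replicate 2. All 8 epithelial markers were counted, which bears on the label of the samples. By the edgeR test described with miR-34a-5p 3 of them were higher, 0 lower and 5 not past the threshold. With total counts in place of TMM 2 were higher and 6 lower. Of all tested miRNAs 17.4% were called higher and 12.8% lower with TMM, and 81.0% were called lower with total counts.

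Treatment with BMP4 was accompanied by lower levels of both miR-34 members. miR-34a-5p was covered by 25, 114 and 188 reads in PBS replicates 1 to 3 and by 13, 2 and 28 reads in BMP4 replicates 1 to 3. On the TMM scale these reads were worth 48.9, 28.5 and 45.2 CPM in PBS and 20.2, 5.34 and 12.3 CPM in BMP4. Every BMP4 library lay below every PBS library, with the closest values, 28.5 and 20.2 CPM, in PBS replicate 2 and BMP4 replicate 1. The mean went from 40.9 ± 10.9 to 12.6 ± 7.41 CPM (SD, n = 3), a 3.24-fold lower level. By edgeR's quasi-likelihood F test, 2-sided with Benjamini-Hochberg adjustment over the 195 miRNAs that passed a filter on low counts, miR-34a-5p fell by 1.60 ± 0.46 on the log2 scale (SE, n = 3 per group, adjusted p = 0.0111). These are levels in whole cultures, in which fewer cells of a type and less of the miRNA per cell cannot be told apart.

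miR-34c-5p, the less abundant member, was also lower in BMP4. It was covered by 8, 82 and 95 reads in PBS replicates 1 to 3 and by 2, 1 and 11 reads in BMP4 replicates 1 to 3. Its levels were 15.7, 20.5 and 22.9 CPM in PBS and 3.10, 2.67 and 4.85 CPM in BMP4. The values of the groups did not overlap, and the lowest PBS value, of 8 reads, was more than 3 times the highest BMP4 value, of 11 reads. The mean went from 19.7 ± 3.67 to 3.54 ± 1.15 CPM (SD, n = 3), and miR-34c-5p fell by 2.31 ± 0.49 on the log2 scale (SE, n = 3 per group, edgeR adjusted p = 0.00100). Thus 2 of 2 members passed the low-count filter and 2 of 2 were called lower. Of all tested miRNAs 30.3% were called in either direction (59 of 195), 12.8% were called lower (25) and 20% (39) had every BMP4 value below every PBS value.

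**Figure D1:**
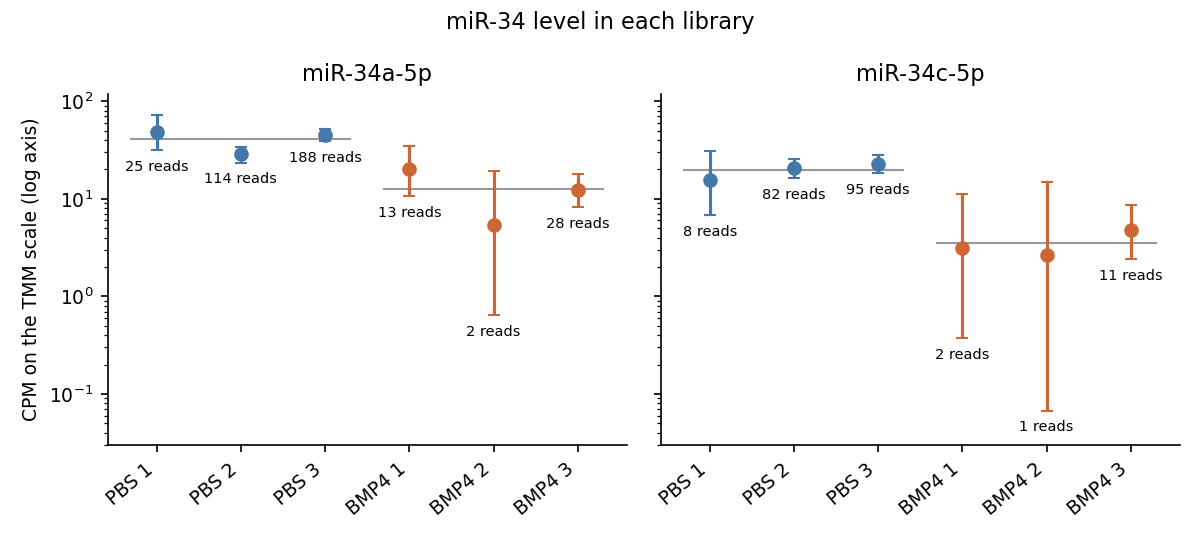
Level of miR-34a-5p (left) and miR-34c-5p (right) in each library, in CPM on the TMM scale with a log axis. Points are libraries labelled with their reads, bars are exact 95% Poisson intervals of the count, and grey lines are group means. The BMP4 libraries sit at 5.34 to 20.2 CPM for miR-34a-5p and 2.67 to 4.85 CPM for miR-34c-5p, below all PBS libraries, with wide bars where 1 or 2 reads were counted.

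The size of these differences was limited by the few reads in BMP4. The floor used here, 3 reads, amounted to 4.65 CPM in BMP4 replicate 1, 8.02 CPM in BMP4 replicate 2 and 1.32 CPM in BMP4 replicate 3. miR-34c-5p was under this floor in BMP4 replicates 1 and 2, and miR-34a-5p was under it in BMP4 replicate 2. BMP4 replicate 3, the deepest library, therefore carried most of the information on the treated group, with 28 of the 43 reads of miR-34a-5p and 11 of the 14 of miR-34c-5p. In that library alone the level of miR-34a-5p was 0.327 times that of the pooled PBS libraries (exact 95% interval 0.214 to 0.481) and that of miR-34c-5p was 0.227 times (0.111 to 0.416).

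Pooled over the group, BMP4 held 43 reads of miR-34a-5p where the PBS level on the TMM scale would have given 124, a ratio of 0.347 (exact 95% interval 0.246 to 0.477). For miR-34c-5p the 14 reads stood against 70.2, a ratio of 0.199 (0.107 to 0.343). The ratios with 1 or 2 reads had wide intervals, with 0.142 (0.0171 to 0.516) for miR-34a-5p in BMP4 replicate 2, 0.145 (0.0175 to 0.532) for miR-34c-5p in BMP4 replicate 1 and 0.125 (0.00315 to 0.706) in BMP4 replicate 2. The ratio nearest to 1 was that of miR-34a-5p in BMP4 replicate 1, at 0.534 (0.281 to 0.927) with 13 reads. Each of these intervals lay below 1. These intervals and the floor hold for counting error alone. They leave out the spread between libraries and the error of the scaling, and reads copied by PCR are not separate molecules.

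The spread within a group was set against counting error. For miR-34a-5p the counting interval of PBS replicate 2 (23.5 to 34.2 CPM) did not meet that of PBS replicate 3 (39.0 to 52.2 CPM), so these libraries differed by more than counting error. For miR-34c-5p the intervals of the 3 PBS libraries overlapped, at 6.76 to 30.9, 16.3 to 25.4 and 18.5 to 27.9 CPM. Within BMP4 the intervals of the 3 libraries overlapped for either member. Some intervals also met between groups. For miR-34c-5p that of PBS replicate 1 met those of the BMP4 libraries, at 0.376 to 11.2, 0.0677 to 14.9 and 2.42 to 8.67 CPM. For miR-34a-5p that of BMP4 replicate 1 (10.7 to 34.5 CPM) met those of PBS replicate 1 (31.7 to 72.2 CPM) and PBS replicate 2. The other pairs of a PBS and a BMP4 library did not meet.

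The call of miR-34c-5p held when any library was left out, with values from -2.76 to -2.09 and edgeR adjusted p up to 0.0175. The value of -2.76 (SE 0.87) came without BMP4 replicate 3. In that fit the treated level rested on libraries with 2 and 1 reads, both under the floor. For miR-34a-5p the call rested on single libraries, and leaving out PBS replicate 1 (-1.42, adjusted p = 0.0505), PBS replicate 3 (-1.41, adjusted p = 0.101) or BMP4 replicate 3 (-1.53, adjusted p = 0.0709) ended it. It stood without BMP4 replicate 2, the library with 2 reads (-1.39, adjusted p = 0.00716). The direction stayed lower in each of these cases.

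The position of the members among the other miRNAs of a library gives their level without any scaling. Ranked by counts from the most abundant among the 199 entries, miR-34a-5p stood at 115, 129 and 118 in PBS and at 154, 179 and 166 in BMP4. miR-34c-5p stood at 149, 138 and 135 in PBS and at 194, 185 and 193 in BMP4, near the end of the list. Both were thus of middle to low abundance in untreated organoids and moved down the order in every BMP4 library. The ratio of miR-34a-5p to each other entry (with 0.5 added to counts) was lower in all BMP4 than in all PBS libraries for 133 of 198 entries, overlapped for 63 and was higher for 2. For miR-34c-5p this ratio was lower for 168 of 198, overlapped for 30 and was higher for 0. These counts and rank shifts were read for the members only. How common they are among the other miRNAs was not measured. In the order of log2 fold changes among the 195 tested miRNAs, miR-34c-5p was the 6th from the lowest and miR-34a-5p was number 12.

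As a share of all counts the difference was larger than on the TMM scale. miR-34a-5p took 96.2, 50.7 and 88.3 RPM in PBS and 12.1, 2.002 and 8.03 RPM in BMP4. miR-34c-5p took 30.8, 36.5 and 44.6 RPM in PBS and 1.86, 1.001 and 3.16 RPM in BMP4. The mean shares were 78.4 ± 24.3 against 7.38 ± 5.08 RPM for miR-34a-5p and 37.3 ± 6.96 against 2.01 ± 1.08 RPM for miR-34c-5p (SD, n = 3). The exact 2-sided permutation p was 0.1 for either share, the smallest that 3 libraries against 3 allow (0.15 adjusted over the 3 permutation tests made). A lower share was the rule, since 82.1% of tested miRNAs had every BMP4 share below every PBS share. Scaled to total counts, 81.0% of tested miRNAs were called lower (158, with 13 higher, against 25 and 34 with TMM), and over all miRNAs the median log2 fold change was -1.78, against 0.03 with TMM. Relative to that median, miR-34a-5p lay at -1.56 and miR-34c-5p at -2.21, against -1.63 and -2.34 with TMM. The plot of the members under each setting shows this shift, which moved both members and the bulk of miRNAs alike.

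**Figure D2:**
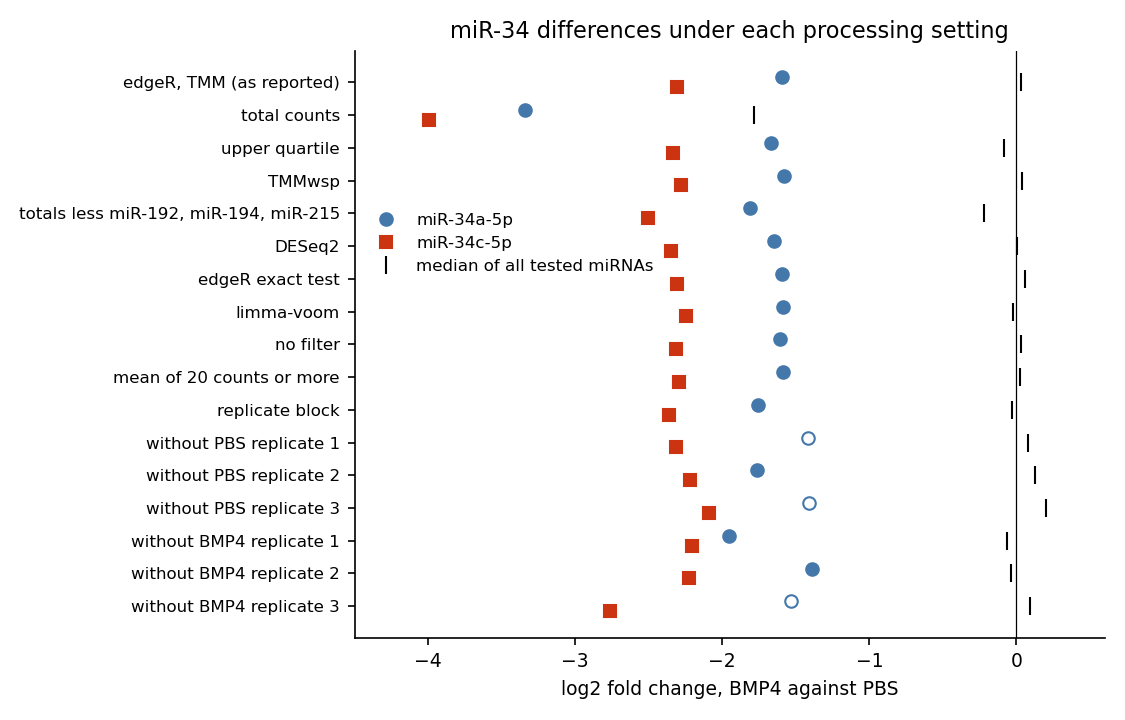
Log2 fold change of BMP4 against PBS (horizontal axis) for miR-34a-5p (circles) and miR-34c-5p (squares) with edgeR and TMM and under 16 alternatives (vertical axis). Filled symbols had an adjusted p under 0.05, open symbols did not, and vertical ticks are the median of all tested miRNAs. Both members lie below that median throughout, and only miR-34a-5p has open symbols, in 3 of the fits that leave out a library.

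Whether the members differed from each other in their response was read from their ratio, which needs no scaling. The ratio of miR-34a-5p to miR-34c-5p reads was 3.13, 1.39 and 1.98 in PBS and 6.5, 2.0 and 2.55 in BMP4. miR-34a-5p was the more abundant member in 6 of 6 libraries, and the groups overlapped. On the log2 scale, with 0.5 added to counts, the ratio was 1.01 ± 0.557 in PBS and 1.49 ± 0.863 in BMP4 (SD, n = 3), a difference of 0.48 with an exact 2-sided permutation p of 0.6. The smallest p that 3 libraries against 3 allow is 0.1, so this test could not pass 0.05 at any depth. Whether miR-34c-5p fell more than miR-34a-5p was therefore not decided, and the p does not show that the members fell alike. The difference was 0.01 without BMP4 replicate 1, 0.86 without BMP4 replicate 2 and 0.77 without PBS replicate 1.

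Of all reads of the pair, miR-34a-5p held 63.9% in PBS (95% Wilson interval 59.6 to 67.9, 512 reads pooled) and 75.4% in BMP4 (62.9 to 84.8, 57 reads pooled). In BMP4 replicate 2 the pair had 3 reads in all, which leaves its share between 20.8 and 93.9%. The share was above 50% with its whole interval in each of the other libraries.

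**Figure D3:**
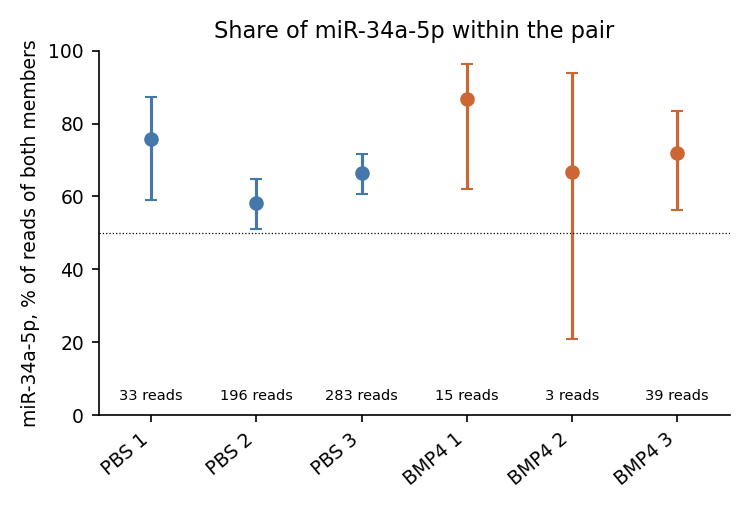
Share of miR-34a-5p in the reads of both members (vertical axis, percent) for each library, with 95% Wilson intervals and the number of reads of the pair. The 3 PBS libraries (75.8, 58.2 and 66.4%) and the 3 BMP4 libraries (86.7, 66.7 and 71.8%) overlap, and the dotted line marks equal shares.

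miRNAs of about the same abundance in PBS were used to set the members beside entries measured with like depth. Those next to miR-34a-5p in mean PBS level were miR-30c-5p, miR-3968, miR-30c-2-3p and miR-99b-5p, at 39.96 to 42.3 CPM. Those next to miR-34c-5p were miR-7a-1-3p, miR-141-5p, miR-1843b-5p and miR-3473e, at 19.1 to 19.9 CPM. Of these 8 entries 0 passed the threshold by edgeR, DESeq2 or limma-voom, and 0 had an unadjusted edgeR p under 0.05. Their log2 fold changes ran from -0.61 (miR-7a-1-3p) to 0.67 (miR-99b-5p) with a lowest adjusted p of 0.284. With total counts 8 of 8 were called lower, at -2.38 to -1.22, against -3.34 and -4.00 for the members. Of all tested miRNAs 30.3% were called by edgeR with TMM. With total counts 81.0% were called lower and the median of all was -1.78.

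The 3 miRNAs whose log2 CPM followed miR-34a-5p most closely over the 6 libraries were miR-19a-3p (Pearson's r = 0.998), miR-106b-5p (0.982) and miR-205-5p (0.980). miR-19a-3p and miR-106b-5p belong to the miR-17-92 cluster and its paralog in Mcm7, known from proliferating cells, and miR-205-5p is a miRNA of stratified epithelium. For miR-34c-5p they were miR-181b-5p (0.986), miR-340-5p (0.982) and miR-20a-5p (0.965), the last also of the miR-17-92 cluster. The other member followed miR-34a-5p with r = 0.841. These correlations are descriptions over 6 points that share their libraries, their scaling and the difference between groups, and those with few reads are uncertain.

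All 6 of these companions fell, with TMM and with total counts. They were chosen for following members that fell, so a fall was built into the choice. Their values and adjusted p describe them and are no separate evidence on the members. miR-205-5p fell by 3.01 ± 0.55 on the log2 scale (SE, n = 3 per group, edgeR adjusted p = 0.000233), which rests on 3, 0 and 8 reads in BMP4 against 18, 85 and 112 in PBS. miR-20a-5p fell by 1.95 ± 0.31 (adjusted p = 4.76e-05) and miR-181b-5p by 2.17 ± 0.42 (adjusted p = 0.000357). miR-19a-3p lost its call without PBS replicate 1 (adjusted p = 0.0532) or PBS replicate 3 (0.0777), and miR-106b-5p without PBS replicate 3 (0.101). miR-340-5p (-1.03 ± 0.37, adjusted p = 0.0409) kept its call only where BMP4 replicate 2 was the library left out.

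Other miRNAs linked to p53 in mouse or human cells were read beside the miR-34 members on the TMM scale. Of a list of 12, 9 were tested. By edgeR 4 rose, 0 fell and 5 did not pass, where 17.4% of all tested miRNAs were called higher. DESeq2 and limma-voom gave the same counts for the list. The median log2 fold change of the 9 was 0.45, against 0.03 over all tested miRNAs. With total counts 3 of the 9 were called higher and 6 lower, where 81.0% of all tested miRNAs were called lower. The median of the 9 was then -1.30 against -1.78 over all. The 4 that rose were miR-215-5p (3.85 ± 0.34, SE, n = 3 per group, edgeR adjusted p = 2.25e-08), miR-194-5p (2.48 ± 0.28, adjusted p = 5.61e-07) and miR-192-5p (1.46 ± 0.30, adjusted p = 0.000654; -0.44 with total counts), which are abundant in the intestinal epithelium, and miR-22-3p (2.68 ± 0.32, adjusted p = 7.84e-07), a miRNA linked to differentiation in several tissues. The 3 of the intestinal epithelium share hairpin clusters, so they are not independent of each other.

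The 5 that did not pass were miR-107-3p (-0.49 ± 0.35, with every BMP4 CPM below every PBS CPM), miR-16-5p (-0.50 ± 0.39), miR-200c-3p (-0.43 ± 0.29), miR-15a-5p (0.03 ± 0.52) and miR-141-3p (0.45 ± 0.38, SE, n = 3 per group). miR-16-5p and miR-15a-5p repress cell cycle mRNAs, and miR-200c-3p and miR-141-3p are epithelial miRNAs of a shared cluster. The miRNAs that share cell cycle targets with the miR-34 family, the miR-15/16 and let-7 families, had 0 of 11 tested members called by edgeR, and their median was -0.10. The 1 member with an unadjusted edgeR p under 0.05 was let-7d-5p (-0.81 ± 0.31, SE, n = 3 per group, adjusted p = 0.0558), which DESeq2 and limma-voom called lower. With total counts 11 of 11 were called lower, with a median of -1.99 against -1.78 over all. Of all tested miRNAs 30.3% were called by edgeR with TMM, and 81.0% were called lower with total counts.

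**Figure D4:**
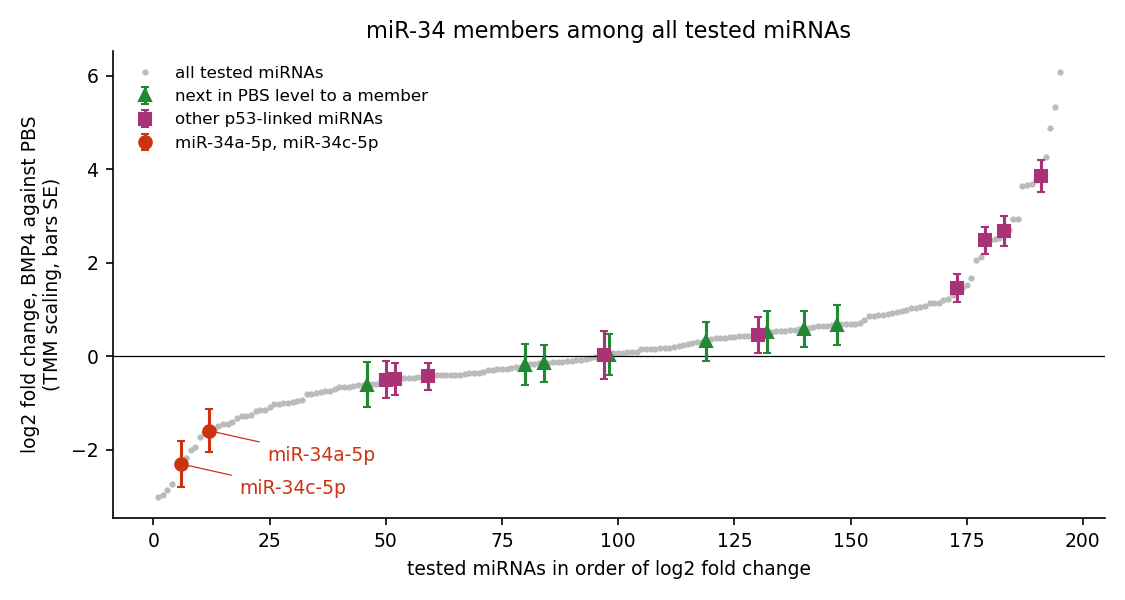
All 195 tested miRNAs in order of their log2 fold change of BMP4 against PBS on the TMM scale (vertical axis), with the 2 miR-34 members, the other p53-linked miRNAs and the 8 miRNAs next to a member in PBS level marked, and SE bars on the marked points. The members lie at -1.60 and -2.31 near the low end, the 8 level neighbours between -0.61 and 0.67, and the p53-linked miRNAs between -0.50 and 3.85, whereas with total counts every marked miRNA but miR-194-5p, miR-215-5p and miR-22-3p is below 0.

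Markers of other cell types were read beside the miR-34 members. Among markers of stratified epithelium, of which miR-205-5p followed miR-34a-5p closely, 1 of 2 fell (miR-205-5p) and 1 of 2 had a higher value past the threshold (miR-203-3p, 1.03 ± 0.29, SE, n = 3 per group, edgeR adjusted p = 0.0104), and their summed level was 3439 to 4242 CPM in PBS and 6747 to 9915 CPM in BMP4. Of the immune markers 2 of 6 were tested, with miR-146a-5p higher (1.22 ± 0.39, adjusted p = 0.0238) and miR-155-5p not past the threshold, and their sum was 40.9 to 54.7 CPM in PBS and 74.4 to 109.6 CPM in BMP4. Of the endothelial markers 1 of 2 was tested (50.9 to 81.2 CPM in PBS, 43.4 to 58.8 CPM in BMP4) and of the muscle markers 1 of 3 (11.7 to 23.2 and 20.2 to 34.7 CPM). Of the neuronal markers 2 of 4 were counted and 1 tested (summed level 238.8 to 564 CPM in PBS, 541 to 1018 CPM in BMP4), and all 3 enteroendocrine markers were tested (summed level 19208 to 19610 and 10303 to 21187 CPM). Of these 6 tested miRNAs 0 passed the threshold by edgeR, DESeq2 or limma-voom, and 0 had an unadjusted edgeR p under 0.05. With total counts these 6 were all called lower (-2.56 to -1.12) and with the upper quartile 1 was (miR-375-3p, -0.83). Of all tested miRNAs 30.3% were called in either direction with TMM. The share called lower was 81.0% with total counts and 15.9% with the upper quartile. With total counts miR-203-3p was also called lower (-0.83), and miR-146a-5p was at -0.58 and not past the threshold. No stromal or erythroid marker was analysed here. The part of other cell types in the lower miR-34 levels was not tested.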

How the data were processed

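The authors trimmed adaptors with bbmap, kept inserts of miRNA length, mapped reads to the genome with miRDeep2 and counted them with its quantifier on the mature miRNAs of miRBase. What they deposited is the unnormalized read count of each miRNA in each library. Per the labels edgeR was among their tools. The genome build, the miRBase release and the rule behind the 199 entries were not given in the sources used here. One read can be placed under several similar mature sequences by this quantifier.

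The main comparison used edgeR 4.0.16 under R 4.3.3 (filterByExpr, TMM, quasi-likelihood F test, adjusted p under 0.05), with no covariate, across 195 of 199 entries, after tests on simulated data. The SE is the log2 fold change divided by the square root of F. Total counts scaling, upper quartile, TMMwsp, DESeq2 1.42.0, limma 3.58.1 (voom), edgeR's exact test, other filters, a replicate block and leaving out each library were the alternatives. Shares and the ratio of the members were tested by exact permutation over libraries. Correlations used log2 CPM with a prior count of 2. Total counts per library ranged from 259811 to 3486409, so that 1 read was worth 0.241 to 2.67 CPM. Positions come from GENCODE M21 (GRCm38), sequences from RefSeq (GRCm38.p6), and plots were drawn with matplotlib 3.10.9.

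The text names the members, measured p53-linked miRNAs of a list, the 3 miRNAs most correlated with each member, the 2 next above and below it in PBS level and its nearest sequences. miR-203-3p, miR-146a-5p, miR-155-5p, miR-375-3p and let-7d-5p were named after their values were seen. The members and lists were chosen with earlier results of these data known.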

Additional observations from a re-analysis of the deposited data

How the results depend on the processing

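miR-34c-5p kept its direction and call under all 16 alternatives (-4.00 to -2.09, adjusted p 5.53e-05 to 0.0175), and miR-34a-5p kept its direction under all 16 (-3.34 to -1.39) and its call under 13. Leaving out each library in turn gave -1.95 to -1.39 for miR-34a-5p (adjusted p 0.00716 to 0.101), 35 to 71 changed miRNAs, 11 to 33 lower and 24 to 38 higher, against 59, 25 and 34 with all libraries. Calls of lower miRNAs numbered 16 with PBS replicate 1 or 2 left out, 11 with PBS replicate 3 (35 changed) and 13 with BMP4 replicate 3 left out. The fits without 1 library estimate the spread from fewer samples; the cause of the lost calls was not tested. For the ratio of the members, 9 alternatives gave differences of 0.01 to 0.86 with no p under 0.25. With total counts 171 miRNAs changed, 13 higher and 158 lower; the cause was not tested.

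With total counts miR-192-5p (-0.44), miR-15a-5p (-1.75), miR-141-3p (-1.30), miR-141-5p (-1.75), miR-30c-5p (-1.23), miR-30c-2-3p (-1.50), miR-99b-5p (-1.23) and miR-1843b-5p (-1.22) turned negative. The median of all miRNAs was -0.09 with the upper quartile and -0.22 with total counts less all miR-192, miR-194 or miR-215 entries, where miR-15a-5p was at -0.088 and -0.19 and miR-141-5p at -0.075 and -0.20. Their values under both of these scalings, and the values that follow, were not past the threshold. miR-15a-5p was at -0.24 by limma-voom and -0.19 with the replicate block, miR-141-5p at -0.0025 by DESeq2 and miR-3473e at 0.012 by limma-voom. Leaving out each library gave ranges across 0 for miR-15a-5p (-0.79 to 0.54), miR-141-3p (-0.030 to 0.69), miR-141-5p (-0.18 to 0.31), miR-3968 (-0.26 to 0.085) and miR-3473e (-0.50 to 0.13).

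Libraries with one replicate number did not deviate together (r = 0.04, 0.09 and -0.01 across miRNAs, with 3 of 6 libraries correlating best with their own number), so the numbers were not taken as pairs. With the replicate block 49 miRNAs changed, miR-34a-5p was at -1.76 (adjusted p = 0.0114) and miR-34c-5p at -2.36 (adjusted p = 0.00819). An exact sign-flip permutation test of the paired ratio gave p = 0.25, the smallest it can give. Depth limits the BMP4 values, with 1 or 2 reads of a member in 3 of the 6 values.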
